A study of Mus musculus with 8 samples.

Results

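The 2 insulin genes of the mouse, Ins1 and Ins2, and Iapp, the gene of amylin (islet amyloid polypeptide), were followed in islet RNA of leptin-deficient mice and their lean controls. The 3 genes were taken by name from the 20715 genes listed for each library, and all 3 had a value in every library and entered the test.

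Islets picked by hand from C57BL/6 mice at an age of 12 weeks gave the RNA, with 4 libraries of the genotype ob/ob and 4 of ob/+. The ob allele inactivates Lep, the leptin gene, so ob/ob mice make no working leptin, overeat and become obese, while the ob/+ controls carry 1 ob allele and 1 working allele. Whether each library is a mouse of its own is not in the labels. The p-values set the difference between the groups against the spread of libraries within the groups. That spread may partly be technical, so the p-values may not extend to other mice. Lep had no value in any library, so it gives no check of the genotype.

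Insulin is made in beta cells as preproinsulin, loses its signal peptide in the endoplasmic reticulum, folds around its disulfide bonds and is cut in the secretory granule into insulin and C-peptide. Mice keep both genes: Ins2 is the counterpart of the single human insulin gene, and Ins1 arose from an Ins2 transcript copied back into the genome. Amylin is made in the same cells, is processed by the same convertases, is stored in the same granules and is released with insulin; it slows gastric emptying and acts on satiety.

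The genes lie on 3 chromosomes. In the mouse build GRCm38, which the submitters' processing notes name, Ins1 is at chr19:52264297-52265476 on the plus strand, with a transcript of 1062 bases in 2 exons in the GENCODE M21 annotation. Ins2 is at chr7:142678656-142743381 on the minus strand in that annotation, which joins 9 transcripts, and its main transcript has 478 bases in 3 exons. Iapp is at chr6:142298423-142303961 on the plus strand, with a main transcript of 839 bases in 3 exons. The transcript length behind each gene's deposited value is not known here.

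The coding sequences of Ins1 and Ins2 are shown because their likeness bears on whether a read can be given to 1 of the 2 genes. Coding bases 1 to 270 of Ins1 and 1 to 276 of Ins2, which end where the longest identical stretch begins, are printed 5′ to 3′ from the GENCODE M21 transcripts, and capitals mark the bases that differ or have no partner in the other gene.
Ins1: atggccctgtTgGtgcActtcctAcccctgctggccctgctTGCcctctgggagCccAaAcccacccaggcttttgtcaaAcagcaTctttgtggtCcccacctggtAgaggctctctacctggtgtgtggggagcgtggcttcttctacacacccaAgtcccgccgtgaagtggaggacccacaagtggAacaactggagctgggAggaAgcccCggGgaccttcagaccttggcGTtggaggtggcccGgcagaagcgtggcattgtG
Ins2: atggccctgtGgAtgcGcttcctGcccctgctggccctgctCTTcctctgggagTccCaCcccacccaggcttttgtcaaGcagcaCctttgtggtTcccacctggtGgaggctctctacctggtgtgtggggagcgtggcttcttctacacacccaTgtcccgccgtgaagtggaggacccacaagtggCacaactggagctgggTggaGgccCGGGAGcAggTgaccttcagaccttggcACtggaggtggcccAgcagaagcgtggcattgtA
Of 324 aligned coding bases 300 (92.6%) were identical, 24 differed, and 6 bases of Ins2 had no partner. The longest stretch that both transcripts share without a difference ran over 56 bases, the last 54 coding bases and 2 bases of the stop codon. Of the 1013 windows of 50 bases in the Ins1 transcript, 7 were also found in the Ins2 transcript, and of the windows of 100 bases none was; no 50-base window of either was found in Iapp. The read length and the rule for reads that match 2 genes are not known here, so a share of the reads may have been counted for the wrong insulin gene, and the Ins1 and Ins2 values are uncertain to that extent. How far the sum of both genes depends on that rule was not tested.

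Expression was deposited as FPKM, fragments scaled by transcript length and library size, a unit inferred from the values. In all 8 libraries Ins2 was the most abundant gene and Ins1 held rank 2. Iapp held rank 3 in 6 libraries, rank 4 in ob/+ replicate 3, behind glucagon (Gcg), and rank 6 in ob/+ replicate 4, behind Gcg and the digestive enzyme genes Amy2a5 and Ctrb1. Per length, Ins2 was thus the highest, Ins1 next and Iapp the lowest of the 3 in every library, with no overlap between their levels. Ins2, Ins1 and Iapp together made up 44.9 to 57.9% of all FPKM in the ob/+ libraries and 61.8 to 70.5% in the ob/ob libraries.

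Iapp and Ins2 transcripts were higher in ob/ob islets, by 1.70-fold and 1.48-fold in the group means, while Ins1 did not pass the test. The comparison asks how islets of obese, leptin-deficient mice differ from those of heterozygous controls in the RNA of their 2 main beta cell hormones. Across all genes tested, 18.8% passed the limma test (Benjamini-Hochberg adjusted p under 0.05), 8.21% as higher and 10.6% as lower in ob/ob; among the 3 genes 2 passed, both as higher. The 4 libraries of each group did not overlap for 20.5% of the tested genes.

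Ins2 stood at 324493, 356774, 296590 and 279293 FPKM in ob/+ replicates 1 to 4 and at 422742, 497511, 431960 and 503843 FPKM in ob/ob replicates 1 to 4. Every ob/ob library lay above every ob/+ library. The means were 314288 ± 33897 FPKM (SD, n = 4) in ob/+ and 464014 ± 42580 (SD, n = 4) in ob/ob. The log2 fold change was 0.56 ± 0.09 (SE), with a 95% interval of 0.38 to 0.75 and a limma adjusted p of 5.40e-05. The exact two-sided permutation test over the 70 assignments of the libraries gave p = 0.0286, the smallest that 4 against 4 allows, and 0.0429 after adjustment over the 3 genes. In RNA of whole islets, a larger share of beta cells and more transcript per beta cell cannot be told apart.

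Iapp stood at 29817, 30213, 26351 and 25702 FPKM in ob/+ replicates 1 to 4 and at 43771, 48803, 47382 and 51065 FPKM in ob/ob replicates 1 to 4. The groups did not overlap, and the lowest ob/ob library lay well above the highest ob/+ library. The means were 28021 ± 2324 FPKM (SD, n = 4) in ob/+ and 47755 ± 3059 (SD, n = 4) in ob/ob. The log2 fold change was 0.77 ± 0.08 (SE), with a 95% interval of 0.60 to 0.94 and a limma adjusted p of 1.23e-07; the exact permutation p was again 0.0286 (0.0429 adjusted over the 3 genes).

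Ins1 stood at 112213, 110032, 95094 and 90334 FPKM in ob/+ replicates 1 to 4 and at 119053, 161365, 107705 and 103160 FPKM in ob/ob replicates 1 to 4. Both groups overlapped: ob/ob replicates 3 and 4 lay below ob/+ replicates 1 and 2, while ob/ob replicate 2 stood apart above all others. The means were 101918 ± 10841 FPKM (SD, n = 4) in ob/+ and 122821 ± 26551 (SD, n = 4) in ob/ob. The log2 fold change was 0.25 ± 0.13 (SE), with a 95% interval of -0.03 to 0.54 and a limma adjusted p of 0.216 (exact permutation p = 0.2). This interval overlaps that of Ins2, which began at 0.38. Without ob/ob replicate 2 the log2 fold change of Ins1 was 0.11 (limma adjusted p = 0.467).

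**Figure D1:**
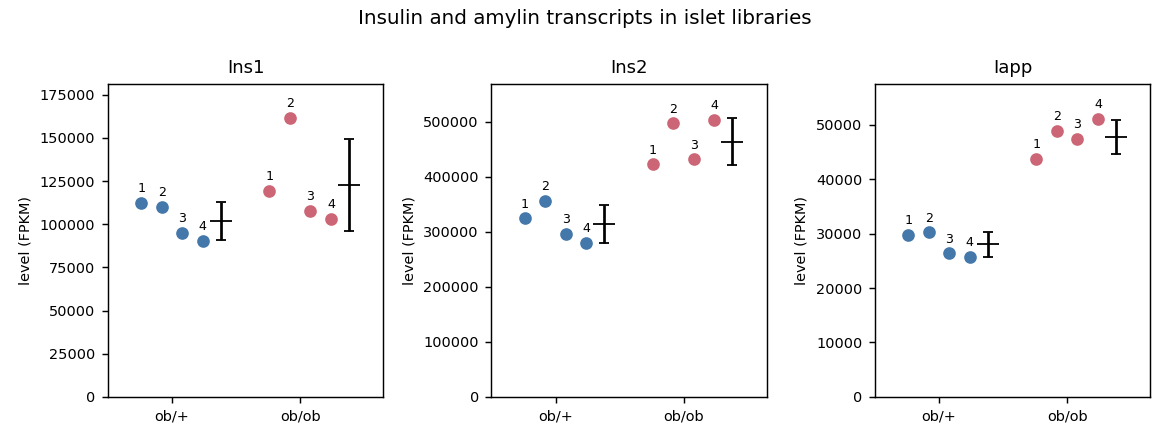
Level of Ins1, Ins2 and Iapp in FPKM (vertical axes, from 0) in each ob/+ (blue) and ob/ob (red) library; numbers are replicate numbers, and the black bar is the mean ± SD of 4 libraries. The 4 ob/ob points lie above all ob/+ points for Ins2 and Iapp, while for Ins1 ob/ob replicate 2, at 161365 FPKM, stands above overlapping groups.

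The spread between libraries of 1 group differed among the 3 genes. On the log2 scale the SD of Ins1 was 0.155 in ob/+ and 0.291 in ob/ob, that of Ins2 was 0.154 and 0.133, and that of Iapp was 0.120 and 0.094. Iapp was therefore the tightest of the 3 in both groups. In ob/+ all 3 genes were above their group mean in replicates 1 and 2 and below it in replicates 3 and 4. In ob/ob all 3 were below their group mean in replicates 1 and 3 and above it in replicate 2, but replicate 4 split them: it was 0.23 below the group's mean log2 level for Ins1, but 0.12 above it for Ins2 and 0.10 above it for Iapp.

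Ratios within a library do not depend on how the library was scaled. The ratio of Iapp to Ins2 was 0.0919, 0.0847, 0.0888 and 0.0920 in ob/+ replicates 1 to 4 and 0.104, 0.0981, 0.110 and 0.101 in ob/ob replicates 1 to 4. All ob/ob libraries exceeded all ob/+ libraries, so Iapp was higher in ob/ob relative to Ins2 as well. The mean ratio was 0.0894 ± 0.00345 (SD, n = 4) in ob/+ and 0.103 ± 0.00489 (SD, n = 4) in ob/ob, 1.15-fold higher. The log2 difference was 0.21 ± 0.04 (SE), with an exact two-sided permutation p of 0.0286 and 0.0381 after adjustment over the 4 ratios compared.

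Measured against both insulin genes together, the ratio of Iapp was 0.0683, 0.0647, 0.0673 and 0.0695 in ob/+ and 0.0808, 0.0741, 0.0878 and 0.0841 in ob/ob. The groups again did not overlap. The mean rose from 0.0675 ± 0.00204 (SD, n = 4) to 0.0817 ± 0.00583 (SD, n = 4), 1.21-fold, with a log2 difference of 0.27 ± 0.06 (SE) and an exact permutation p of 0.0381 adjusted over the 4 ratios. Amylin transcript thus took a larger part of the hormone RNA: of the summed FPKM of the 3 genes, Iapp made up 6.32 ± 0.179% (SD, n = 4) in ob/+ and 7.55 ± 0.50% (SD, n = 4) in ob/ob.

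The ratio of Iapp to Ins1 was 0.266, 0.275, 0.277 and 0.285 in ob/+ and 0.368, 0.302, 0.440 and 0.495 in ob/ob. The ob/+ libraries were almost alike and the ob/ob libraries were all higher but scattered. The means were 0.275 ± 0.00776 (SD, n = 4) and 0.401 ± 0.0840 (SD, n = 4), with a log2 difference of 0.52 ± 0.16 (SE) and an exact permutation p of 0.0381 adjusted over the 4 ratios. For the 3 ratios with Iapp, leaving out any 1 ob/+ library raised the adjusted exact permutation p to 0.0762. Each omission of 1 library left 35 assignments. Over all 8 omissions the lowest adjusted exact permutation p of each of these ratios was 0.0286. Without 1 ob/+ library the log2 difference was 0.50 to 0.53 for Iapp to Ins1. It was 0.18 to 0.22 for Iapp to Ins2 and 0.25 to 0.29 for Iapp to summed insulin.

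The balance of the 2 insulin genes did not pass the test. The ratio of Ins2 to Ins1 was 2.89, 3.24, 3.12 and 3.09 in ob/+ and 3.55, 3.08, 4.01 and 4.88 in ob/ob. Of the ob/ob libraries 3 lay above the ob/+ range, and replicate 2, the library with the high Ins1 value, lay within it. The means were 3.09 ± 0.145 (SD, n = 4) and 3.88 ± 0.768 (SD, n = 4), with a log2 difference of 0.31 ± 0.14 (SE) and an exact permutation p of 0.114. Without ob/ob replicate 2 the log2 difference was 0.42 and the adjusted exact permutation p 0.0286, so that 1 library decided the call. As a share of summed insulin, Ins1 made up 25.7, 23.6, 24.3 and 24.4% in ob/+ and 22, 24.5, 20.0 and 17.0% in ob/ob. A difference between the 2 insulin genes in their change was thus not shown by this test, nor was its absence.

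**Figure D2:**
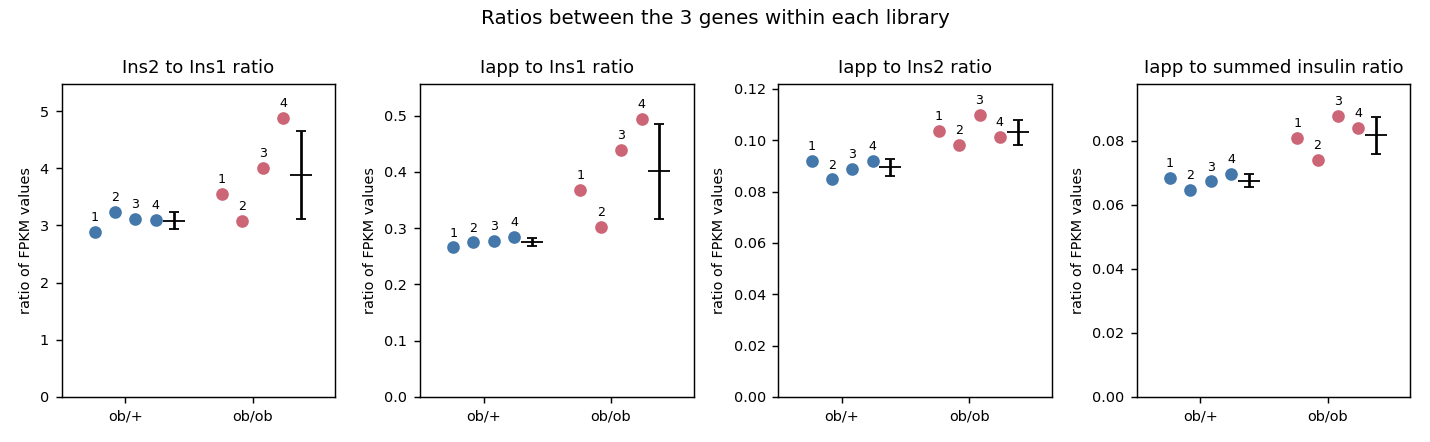
Ratio of FPKM values between the 3 genes within each library (vertical axes, from 0), for ob/+ (blue) and ob/ob (red); numbers are replicate numbers, and the black bar is the mean ± SD of 4 libraries. The 3 ratios with Iapp separate the groups, whereas the ratio of Ins2 to Ins1 overlaps through ob/ob replicate 2, at 3.08.

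Because the 3 genes fill so much of each library, their share of all FPKM was compared too. Ins1 and Ins2 together took 42.0 to 54.3% of summed FPKM in ob/+ and 57.1 to 65.6% in ob/ob, with means of 48.8 ± 5.31% and 60.7 ± 3.72% (SD, n = 4 each). Iapp took 3.29 ± 0.283% in ob/+ and 4.95 ± 0.260% in ob/ob (SD, n = 4 each). Neither share overlapped between the groups, and the exact permutation p was 0.0286 for each, the smallest that 4 against 4 allows. The share of all 3 genes, the sum of these 2, had the same p, so adjustment over the 3 shares could not change it. Leaving out any 1 ob/ob library raised this p to 0.0571. The log2 differences then were 0.28 to 0.35 for the insulin share and 0.57 to 0.62 for the Iapp share.

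RNA of other pancreatic cells also differed between the libraries. Genes of the digestive acinar cells took 7.58 to 25.8% of summed FPKM in ob/+, most in replicate 4, and 3.29 to 11.5% in ob/ob, most in replicate 1. Of the 42 gene symbols on the acinar list 40 had values, and some of these entries had identical values in all 8 libraries. With those genes left out of the total, insulin took 57.0 ± 1.44% in ob/+ and 65.1 ± 2.18% in ob/ob (SD, n = 4 each), and Iapp 3.84 ± 0.0973% and 5.31 ± 0.237%, still without overlap (exact permutation p = 0.0286 each). Without ob/+ replicate 4 and ob/ob replicate 1, the libraries richest in acinar RNA in each group, the log2 fold change was 0.55 for Ins2 (limma adjusted p = 0.0083) and 0.77 for Iapp (limma adjusted p = 0.000125). The hormones of the other islet cells were lower in ob/ob: per 100 FPKM of insulin, Gcg of alpha cells stood at 6.57 ± 1.47 and 1.44 ± 0.213, Sst of delta cells at 1.37 ± 0.141 and 0.210 ± 0.0160, and Ppy of PP cells at 1.51 ± 0.251 and 0.375 ± 0.126 in ob/+ and ob/ob (SD, n = 4 each). Iapp was about level with Gcg in ob/+, at a ratio of 1.06 ± 0.214, and far above it in ob/ob, at 5.72 ± 0.514 (SD, n = 4 each). All 4 alpha cell markers and all 3 delta cell markers tested passed as lower; their summed levels were 23668 to 30523 FPKM in ob/+ against 7104 to 10064 in ob/ob for alpha cells, and 5542 to 6200 against 1028 to 1471 for delta cells. Of the 3 duct markers tested, Krt7 passed as higher, at 114 ± 15.2 FPKM in ob/+ and 145 ± 5.59 in ob/ob (SD, n = 4 each; log2 fold change 0.35, limma adjusted p = 0.0107), though not at equal sums or under the scaling without acinar genes. The 2 other duct markers did not pass and had lower means in ob/ob, and the median log2 fold change of the 3 was -0.33. Of the 39 acinar genes tested, Prss1, 1810009J06Rik, Gm5771 and Gm10334 passed as higher, from group means of 0.633 to 8.32 FPKM in ob/+ to 13.1 to 49.6 in ob/ob. Cela3a passed as lower, and 34 did not pass. The median log2 fold change of the 39 was -0.89 against -0.07 for all tested genes. Of all tested genes 8.21% passed as higher and 10.6% as lower. Without the robust option 16 acinar genes passed as lower and 5 as higher, and without the trend and robust options 10 and 5. The 6 duct and acinar genes named as passing were named after their values were seen. The summed markers of endothelial cells (43.3 to 54.1 FPKM in ob/+, 37.5 to 53.0 in ob/ob) and macrophages (5.36 to 8.07 and 3.58 to 8.32) overlapped. No marker with a value was at 0 in every library. The part of these other cells in the insulin and Iapp values was not tested.

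**Figure D3:**
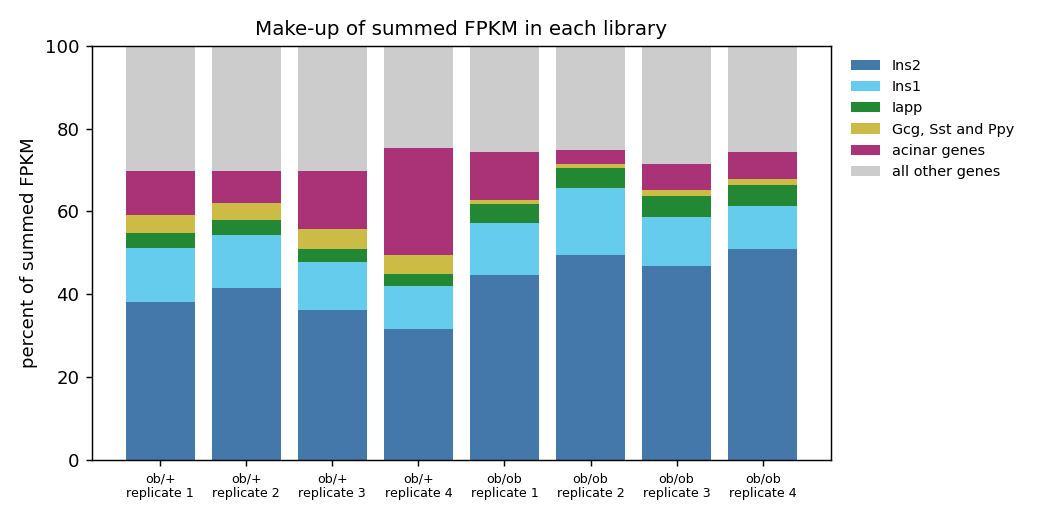
Percent of summed FPKM (vertical axis) taken by Ins2, Ins1, Iapp, the other islet hormones Gcg, Sst and Ppy, the acinar genes and all other genes in each of the 8 libraries (stacked bars). The insulin part is 42.0 to 54.3% in ob/+ and 57.1 to 65.6% in ob/ob, and the acinar part is largest, 25.8%, in ob/+ replicate 4.

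The size of the changes depended on what each library was scaled to. The deposited values sum to 820968 to 880570 FPKM per ob/+ library and 920734 to 1004230 per ob/ob library. Scaled to equal sums over all genes, the log2 fold changes were 0.07 for Ins1, 0.39 for Ins2 and 0.59 for Iapp. Scaled to equal sums of all genes but the acinar ones, they were -0.05, 0.26 (limma adjusted p = 0.0597, no longer past the threshold) and 0.47; scaled to equal sums of all genes but Ins1, Ins2 and Iapp, they were 0.55 (limma adjusted p = 0.00194), 0.86 and 1.07. Iapp passed under each of the 8 scalings. Ins2 also missed the threshold with the median or the upper quartile of tested genes set equal, where its log2 fold change was 0.63 and 0.61 but its SE was larger. Over these scalings the median of the log2 fold changes of tested genes ran from -0.34 to 0.20, with -0.07 for the deposited values. A scaling shifts all genes of a library nearly alike, so the difference from that median hardly depends on it by construction: it was 0.29 to 0.35 for Ins1, 0.60 to 0.67 for Ins2 and 0.81 to 0.87 for Iapp.

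**Figure D4:**
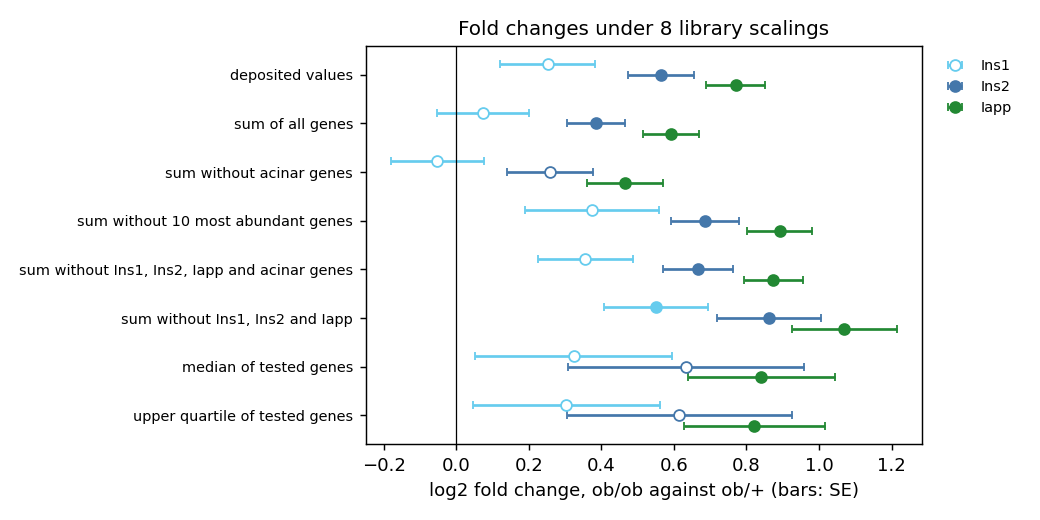
Log2 fold change of Ins1, Ins2 and Iapp in ob/ob against ob/+ (horizontal axis; bars are SE) under the deposited values and 7 other library scalings (rows); filled points passed the limma test and open points did not. The 3 points shift together from row to row, as a change of scaling makes them, and their distance from 0 changes, from 0.47 to 1.07 for Iapp.

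Insulin genes are switched on by a set of beta cell transcription factors, among which Pdx1, Mafa and Neurod1 bind the insulin promoter. Of 23 such factors listed, 21 were tested. Of these, 3 passed as lower, 2 as higher and 16 did not pass. Among all tested genes 10.6% passed as lower and 8.21% as higher. The median log2 fold change of the 21 was -0.16 against -0.07 for all tested genes. Mafa, an activator of insulin transcription in mature beta cells, was at 140, 113, 120 and 115 FPKM in ob/+ replicates 1 to 4 and at 44.4, 66.7, 55.3 and 53.3 FPKM in ob/ob replicates 1 to 4. Its groups lay far apart (log2 fold change -1.15 ± 0.11 (SE), limma adjusted p = 4.12e-08). Neurod1, which binds E-box motifs together with Tcf3, was at 91.6 ± 11.7 FPKM in ob/+ and 59.1 ± 4.88 in ob/ob (SD, n = 4 each), a log2 fold change of -0.62 ± 0.10 (SE, limma adjusted p = 9.30e-05); it lost its call when Ins1, Ins2 and Iapp were left out of the scaling (-0.32).

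Rfx6, a factor needed for beta cell identity, went the other way. It was at 43.3, 39.9, 48.9 and 40.4 FPKM in ob/+ and at 64.1, 67.4, 74.1 and 69.9 FPKM in ob/ob, without overlap (log2 fold change 0.67 ± 0.10 (SE), limma adjusted p = 1.61e-05). Crem, a cAMP-responsive factor, was also higher, with a log2 fold change of 0.44, and Isl1, a homeodomain factor of islet cells, lower, with -0.36 (limma adjusted p = 0.0146 and 0.0439). The groups overlapped for Isl1 but not for Crem. The call of Crem was lost in 2 of 22 alternative settings and that of Isl1 in 13 of 23. Pdx1, at 78.5 ± 13.3 and 68.8 ± 9.57 FPKM, and Nkx6-1, at 148 ± 34.4 and 134 ± 21.0 FPKM (ob/+ and ob/ob, SD, n = 4 each), overlapped between the groups and did not pass (limma adjusted p = 0.336 and 0.726); the sign of their small differences turned with Ins1, Ins2 and Iapp left out of the scaling (0.11 and 0.18). The number of these factors that passed as lower was 16 under the scaling without acinar genes, 1 with Ins1, Ins2 and Iapp left out, and 12 without ob/+ replicate 4. Of all tested genes, 7068 of 11747, 299 of 11747 and 3728 of 11612 passed as lower in these settings. Less the median of all tested genes, the list's median lay between -0.10 and -0.083.

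**Figure D5:**
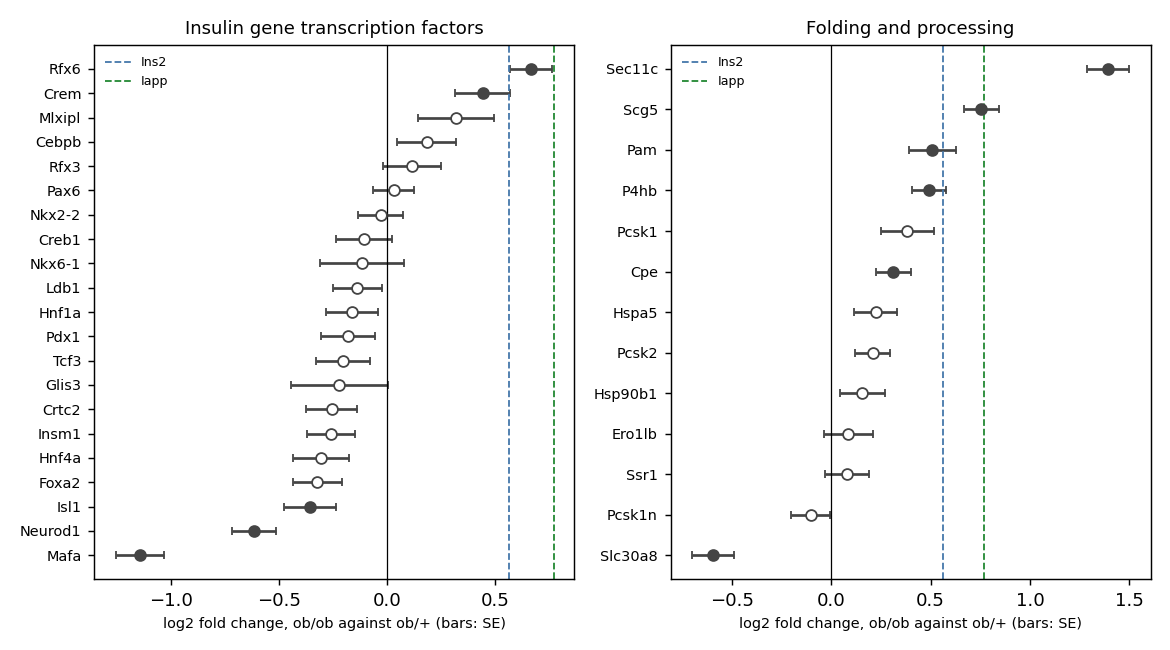
Log2 fold change in ob/ob against ob/+ (horizontal axes; bars are SE) of the 21 tested insulin gene transcription factors and the 13 tested folding and processing genes; filled points passed the limma test, open points did not, and the dashed lines mark Ins2 and Iapp. Mafa lies furthest to the left, at -1.15, and Sec11c furthest to the right, at 1.39.

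The stretch just before a gene's start is where many of these factors bind. The 250 bases before the annotated start of Ins1 (chr19:52264047-52264296, plus strand) and of Iapp (chr6:142298175-142298424, plus strand) are printed 5′ to 3′. They come from the RefSeq promoter set of GRCm38.p6, which held no entry for Ins2. Whether both annotated starts lie equally near the place where transcription begins was not tested. The 2 stretches may thus not be matching parts of a promoter. Capitals mark TAAT on either strand, the core that homeodomain factors such as Pdx1 and Nkx6-1 read, and CANNTG, the E-box of Neurod1 with Tcf3.
Ins1: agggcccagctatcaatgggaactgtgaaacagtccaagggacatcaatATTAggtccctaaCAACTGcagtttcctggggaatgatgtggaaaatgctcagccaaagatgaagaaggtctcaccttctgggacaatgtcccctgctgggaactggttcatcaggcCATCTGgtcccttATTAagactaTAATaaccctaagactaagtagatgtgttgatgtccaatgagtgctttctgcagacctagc
Iapp: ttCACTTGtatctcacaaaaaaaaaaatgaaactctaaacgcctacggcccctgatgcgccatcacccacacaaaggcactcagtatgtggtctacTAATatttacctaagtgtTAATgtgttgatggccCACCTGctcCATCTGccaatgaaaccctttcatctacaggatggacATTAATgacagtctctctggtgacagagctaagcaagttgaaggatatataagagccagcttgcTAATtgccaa
Ins1 held 3 matches to TAAT and 2 to CANNTG, and Iapp held 5 and 3, where 1 pair of TAAT matches, on opposite strands, overlaps. Among 32851 promoter windows of this length, 54.9% held TAAT and 66.2% held CANNTG, with a median of 1 match each. As many TAAT matches as Ins1 or more were found in 17.3% of the windows and as many as Iapp or more in 5.54%; for CANNTG the shares were 31.8% and 12.2%. Such short motifs are common, and a match is a description of the letters and not a binding site.

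Proinsulin and pro-amylin pass through the same folding and processing steps. Of 14 gene symbols listed for these steps, 13 had values and were tested. Of these, 5 passed as higher, 1 as lower and 7 did not pass. Among all tested genes 8.21% passed as higher and 10.6% as lower. The median log2 fold change of the 13 was 0.23 against -0.07 for all tested genes. Sec11c, a catalytic subunit of the signal peptidase that removes the signal peptide, was at 78.4, 102, 75 and 92 FPKM in ob/+ and at 201, 224, 225 and 265 FPKM in ob/ob. Its log2 fold change, 1.39 ± 0.11 (SE, limma adjusted p = 1.05e-09), was larger than those of the hormones, a difference that was not tested. P4hb, a protein disulfide isomerase, was at 333 ± 36.5 and 466 ± 18.8 FPKM (SD, n = 4 each), with a log2 fold change of 0.49 ± 0.09 (SE, limma adjusted p = 0.000155); under the scaling without acinar genes it was 0.19 and did not pass.

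Scg5, the chaperone 7B2 of the convertase PC2, was at 541 ± 44.5 FPKM in ob/+ and 916 ± 102 in ob/ob (SD, n = 4 each), a log2 fold change of 0.76 ± 0.09 (SE, limma adjusted p = 6.56e-07). The convertase genes themselves did not pass: Pcsk1 was at 125 ± 26.5 and 161 ± 14.7 FPKM (SD, n = 4 each; log2 fold change 0.38, limma adjusted p = 0.0572), and Pcsk2 at 796 ± 78.7 and 919 ± 74.4 FPKM (0.21, limma adjusted p = 0.0981). Pcsk1 passed in 9 of the 23 alternative settings. Cpe, the carboxypeptidase that trims the cut ends, had a log2 fold change of 0.31 (limma adjusted p = 0.0116), and Pam, which amidates the end of amylin but has no such step in insulin, one of 0.51 (limma adjusted p = 0.00488). Both lost their calls when libraries were scaled to equal sums (0.14 and 0.33).

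Slc30a8, the zinc transporter that fills insulin granules with the zinc around which insulin crystallises, went down. It was at 357, 380, 427 and 289 FPKM in ob/+ and at 215, 269, 237 and 235 FPKM in ob/ob, without overlap (log2 fold change -0.59 ± 0.10 (SE), limma adjusted p = 0.000246); with Ins1, Ins2 and Iapp left out of the scaling it was -0.30 and did not pass. The calls of the list depended on the scaling: 2 passed as higher and 3 as lower under the scaling without acinar genes, where the list's median was -0.08, and 9 as higher and 0 as lower with Ins1, Ins2 and Iapp left out. Of the 11747 tested genes, 484 passed as higher and 7068 as lower under the former scaling, and 1324 and 299 under the latter. Less the median of all tested genes, the list's median lay between 0.26 and 0.33.

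Several proteins bind insulin mRNA and change its stability or translation. Of the 6 genes of such proteins tested, 1 passed, as lower: Ptbp1, which binds a pyrimidine-rich stretch in the tail of insulin mRNA and stabilises it. Ptbp1 was at 77.7, 75.1, 74.0 and 62.4 FPKM in ob/+ and at 50.9, 51.0, 53.6 and 47.3 FPKM in ob/ob, a log2 fold change of -0.50 ± 0.10 (SE, limma adjusted p = 0.000467) that fell short of the threshold with Ins1, Ins2 and Iapp left out of the scaling (-0.21). Its relative Ptbp2, at -0.30, and Elavl1 and Pcbp2, at -0.30 and -0.22, did not pass (limma adjusted p = 0.0708, 0.109 and 0.111). The median of the 6 was -0.26 against -0.07 for all tested genes, of which 10.6% passed as lower. The number of the 6 that passed as lower was 5 at equal sums, 5 under the scaling without acinar genes, 5 without ob/+ replicate 4 and 0 with Ins1, Ins2 and Iapp left out of the scaling. Among all tested genes the numbers in these settings were 3124 of 11747, 7068 of 11747, 3728 of 11612 and 299 of 11747.

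On the receiving side, 12 genes of insulin and amylin receptors, their signalling partners and their degradation were listed and 10 were tested. Among all tested genes 10.6% passed as lower and 8.21% as higher. Of the 10, 1 passed as lower and none as higher, with a median log2 fold change of -0.02. The gene that passed, Igf1r, the receptor of insulin-like growth factors, was at 5.12 ± 0.930 and 3.70 ± 0.283 FPKM (SD, n = 4 each) with overlapping groups (log2 fold change -0.37, limma adjusted p = 0.0473), and it lost its call in 12 alternative settings. The number of the 10 that passed as lower was 5 under the scaling without acinar genes and 3 without ob/+ replicate 4. Among all tested genes the numbers were 7068 of 11747 and 3728 of 11612. Irs2, an insulin receptor substrate, Bace2, an amylin-cutting protease, and Ramp3, a partner of the calcitonin receptor in amylin receptors, did not pass (log2 fold change 0.41, 0.18 and -0.23). Calcr, the calcitonin receptor itself, was below the filter, at 0.0175 ± 0.0236 FPKM in ob/+ and 0.005 ± 0.010 in ob/ob (SD, n = 4 each). Relatives of both hormones were low: of the 7 listed relatives of insulin 2 were tested, Igf2 and Insl3, and neither passed (limma adjusted p = 0.0882 and 0.656); Igf2 was at 2.13 ± 0.535 and 1.46 ± 0.337 FPKM (SD, n = 4 each). Of the 5 listed relatives and receptor genes of the calcitonin family, Adm2 alone was tested and did not pass (limma adjusted p = 0.917).

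Among 4853 genes with a mean of at least 10 FPKM, the genes whose profile over the 8 libraries lay nearest to each hormone gene were listed by the root mean square difference of centred log2 values, as a description. Nearest to Iapp were Dpm3 (0.055), Erlec1, Rab3d, Fkbp2 and Saraf; Dpm3 was at 54.3 ± 3.85 FPKM in ob/+ and 89.9 ± 3.52 in ob/ob (SD, n = 4 each). Nearest to Ins2 were Anapc16 (0.057), Cnpy2, Rgs5, Vimp and Vkorc1; Cnpy2 was at 63.6 ± 4.56 and 94.6 ± 4.27 FPKM (SD, n = 4 each). Nearest to Ins1 were Hist1h2bc (0.090), F8a, Igfbp3, Rusc1 and Dpp3; Hist1h2bc was at 117 ± 8.65 and 132 ± 18.6 FPKM (SD, n = 4 each). Iapp was number 53 in the order of genes nearest to Ins2 and Ins2 number 38 in that of Iapp, with a difference of 0.117. For Ins1 the order placed Ins2 at number 1377 and Iapp at number 3572, so in these libraries the profile of Ins2 was nearer to that of Iapp than to that of the other insulin gene.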

How the data were processed

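Islet RNA of 4 ob/+ and 4 ob/ob libraries was compared, grouped by the labelled genotype. The authors deposited 1 value per gene and library in FPKM; neither labels nor file headers give the unit, which was read from the values (2 decimals, sums that differ between libraries). The submitters' processing notes name Trimmomatic 0.36, DESeq2 1.20.0, mm10 and GRCm38 and give no role to any of them. The aligner, quantifier, read length and strandedness were not given in the sources used here. FPKM is relative to the library, so a larger share of insulin lowers the values of other genes, and reads that match Ins1 and Ins2 may be divided by a rule not known here. Sequencing depth is unknown, and counting error is not estimated.

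Of 20715 genes listed, 3314 had no value in any library; 11747 that reached 1 FPKM in 4 or more libraries entered limma 3.58.1 as log2(FPKM + 1) (eBayes with trend and robust, R 4.3.3), two-sided, with Benjamini-Hochberg adjustment over all tested genes and a threshold of 0.05. Fold changes on this scale understate those of low genes. Ratios and shares were tested on log2 values by exact permutation over 70 assignments (two-sided). The 3 genes and the lists were chosen with earlier results of these data known; 1 gene of the lists is not reported here. From each list up to 4 genes with the smallest p were named, beside Pdx1, Mafa, Neurod1, Nkx6-1, Pcsk1, Pcsk2, Cpe and Pam, and the 5 nearest profiles per gene; Isl1, Calcr and the neighbouring genes in the closing section were named after their values were seen. Sequences came from GENCODE M21 transcripts and RefSeq promoters (GRCm38.p6). Libraries of 1 group correlated at 0.978 to 0.993 and no pair held identical values in more than 0.712% of genes above 1 FPKM, so none was counted as a duplicate. Alternatives changed the pseudocount, filter, scaling, variance moderation, replicate block and libraries used.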

Additional observations from a re-analysis of the deposited data

How the results depend on the processing

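The direction of Ins2 and Iapp held in all 23 alternatives of the limma fit, and Iapp passed in each. Ins2 missed the threshold in 4: 0.26 under the scaling without acinar genes (limma adjusted p = 0.0597), 0.63 with medians set equal (0.166), 0.61 with upper quartiles set equal (0.156) and 0.56 without the robust option (0.456); in the last 3 the fold change was as large or larger and the SE rose, and the cause was not tested. Ins1 was at -0.052 under the scaling without acinar genes and passed at 0.55 with Ins1, Ins2 and Iapp left out. Leaving out 1 library gave 0.73 to 0.81 for Iapp, 0.51 to 0.63 for Ins2 and 0.11 to 0.33 for Ins1.

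Leaving out 1 library gave log2 differences of 0.41 to 0.65 for Iapp to Ins1, 0.18 to 0.23 for Iapp to Ins2, 0.24 to 0.32 for Iapp to summed insulin, 0.19 to 0.42 for Ins2 to Ins1, 0.25 to 0.37 for the insulin share, 0.54 to 0.63 for the Iapp share and 0.27 to 0.39 for the share of the 3 genes. Without both ob/+ replicate 4 and ob/ob replicate 1, where 3 against 3 libraries allow no exact permutation p below 0.1, these were 0.57, 0.22 and 0.29 for the ratios with Iapp and 0.28, 0.57 and 0.30 for the shares.

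The number of genes called, 2208, was 1078 with a filter of 10 FPKM, 3645 at equal sums, 7552 with the acinar genes left out, 3429 with medians and 3498 with upper quartiles set equal, 4000 without both libraries, and 1434 (without ob/+ replicate 1) to 4832 (without ob/+ replicate 4) with 1 library left out. The share of calls that were higher in ob/ob was 43.7% with the deposited values and, by scaling, 14.3% at equal sums, 6.41% with the acinar genes left out, 67.2% with the 10 most abundant genes left out, 81.6% with Ins1, Ins2 and Iapp left out, 61.9% with these and the acinar genes left out, 53.2% with medians and 48.1% with upper quartiles set equal. Genes near 0 changed sign: with the acinar genes left out, Pcsk2 (-0.10) and Bace2 (-0.12); with Ins1, Ins2 and Iapp left out, Pdx1 (0.11), Nkx6-1 (0.18), Pcbp2 (0.081) and Ramp3 (0.011); with the 10 most abundant genes left out, Nkx6-1 (0.0033).

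The labels number the replicates 1 to 4 in both groups but do not pair them. Deviations from the group means of same-numbered libraries correlated at -0.22, 0.21, 0.17 and 0.12, and 2 of the 4 numbers were each other's best match. Since number 1 did not exceed 0.1, the numbers were not taken as pairs in the results above. With the replicate number as a block, 2674 genes passed; Iapp was 0.77 (limma adjusted p = 0.000685), Ins2 0.56 (0.0339) and Ins1 0.25 (0.29). Ppy lost its call (limma adjusted p = 0.0537), and of the 21 insulin gene transcription factors 3 passed as higher and 4 as lower. Paired exact tests over the same-numbered libraries, added after seeing the data, cannot go below p = 0.125 with 4 pairs; the log2 differences were 0.52, 0.21 and 0.27 for Iapp to Ins1, Ins2 and summed insulin (higher in 4 of 4 pairs each, adjusted exact p = 0.167), 0.31 for Ins2 to Ins1 (3 of 4 pairs, 0.25), and 0.32, 0.59 and 0.34 for the insulin, Iapp and 3-gene shares (4 of 4 pairs each, 0.125). Depth is unknown and sets no stated limit here.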

Other observations

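The genes that neighbour the hormone genes within 250 kb were read as well, after some of their values had been seen. Next to Iapp on chromosome 6, Slco1a6, an organic anion transporter gene 89904 bases away, was at 7.90, 6.52, 5.70 and 4.37 FPKM in ob/+ and at 24.6, 26.3, 21.7 and 21.3 FPKM in ob/ob. It rose with a log2 fold change of 1.80 ± 0.14 (SE, limma adjusted p = 8.94e-10). Slco1a5, whose annotated span overlaps Iapp on the opposite strand, was at 1.23 ± 0.394 and 2.73 ± 0.298 FPKM (SD, n = 4 each; log2 fold change 0.76, limma adjusted p = 0.000235); whether reads were counted by strand is not given in the sources used here, so its reads and those of Iapp may not be told apart. Further along, Pyroxd1, Recql and Golt1b did not pass, and Ldhb, a lactate dehydrogenase subunit, was lower (log2 fold change -0.52, limma adjusted p = 0.0269), a call that was lost in 9 of the alternative settings.

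Next to Ins2 on chromosome 7, Th, which makes the first step of catecholamine synthesis, was at 24.7 ± 5.32 FPKM in ob/+ and 17.0 ± 1.85 in ob/ob (SD, n = 4 each; log2 fold change -0.50 ± 0.13 (SE), limma adjusted p = 0.00761), against the direction of Ins2. The call of Th was lost in 3 of the 23 alternative settings, among them without ob/+ replicate 1 (log2 fold change -0.38, limma adjusted p = 0.0568). Igf2, 11840 bases from Ins2, and Mrpl23 and Lsp1 did not pass. No gene within this distance of Ins1 had a listed value.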
